A study of Sus scrofa with 6 samples.

Results

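Genes that control the making of mitochondria in muscle, together with a pair of uncoupling proteins that these regulators govern, were compared in the pig between a muscle of the back, the longissimus dorsi (LDM), and a muscle of the loin, the psoas major (PMM). Of 8 genes looked for (PPARGC1A, PPARA, PPARD, ESRRA, NRF1, TFAM, UCP2 and UCP3), 6 were found among the 3470 genes that could be named on the array, each with 1 of its 43603 probes. For 5 of them the deposited files gave the gene symbol, and the probe of PPARGC1A, which carried the older symbol PPARGC-1, was added through its RefSeq accession. ESRRA and NRF1 had no probe named for them and were not analysed here, and 88.4% of all probes could not be named.

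The study took both muscles from 3 unrelated female Landrace pigs of 210 days of age, which had free access to water but no feed for 24 h before slaughter, and set PMM, an oxidative muscle, against LDM, a glycolytic one. Each muscle was measured on 3 one-colour arrays, so that the number of arrays limits the precision. Replicate numbers were the same in both muscles, and the text of the labels does not say that a number stands for a pig. All animals shared breed, sex, age, diet and fast, and whole pieces of muscle were used, so that a change in the cells present and a change in RNA per cell cannot be told apart.

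PPARGC1A encodes PGC-1 alpha, a coactivator that has no DNA-binding domain of its own and works through nuclear receptors such as PPAR alpha, PPAR delta and ERR alpha and through the nuclear respiratory factors. These raise genes of fatty acid oxidation and of the respiratory chain, and TFAM, which NRF1 activates, enters the mitochondrion to package and transcribe its DNA. UCP3, found mostly in skeletal muscle, and UCP2, found in many tissues and high in immune cells, are carriers of the inner mitochondrial membrane, and fatty acids raise both through PPARs.

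The probes are shown because each gene was read from 1 stretch of 60 bases only, and because members of the PPAR and UCP families resemble one another. The first 30 bases of each are given as the files list them, except for PPARD, whose 60 bases are given whole. It is the only probe without a stop codon when read from its first base. Other reading frames were open in PPARGC1A, PPARA, TFAM and UCP2 as well. No letter is singled out by capitals.
PPARGC1A: aagcacatgtttattcatgggtgtcagctt
PPARA: ttttttattttaaccttttaaaaaagcccc
PPARD: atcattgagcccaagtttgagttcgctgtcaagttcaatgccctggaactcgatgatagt
TFAM: agagtcgatggttgtatgtggaaaggattg
UCP2: atcagccaggatctcaagtcctccgtcctt
UCP3: atttggggaaaaggattatgactcaataaa
The longest run of bases that any pair of these probes shared was 8, between TFAM and UCP3, and the probes of UCP2 and UCP3 shared at most 6. The probes were compared only with each other. Whether a probe also binds the transcript of a related gene was not tested. UCP2 and UCP3 lie on the same chromosome in the RefSeq table of the Sscrofa11.1 assembly, with 1 other gene starting between them. The PPARA probe was designed on a clone of liver cDNA and the other 5 on RefSeq transcripts.

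Signals are given as log2 of the spot intensity minus log2 of the 75th percentile of that array, so that a value of 0 is the 75th percentile and a step of 1 is a doubling. That percentile lay between 595 and 883 intensity units over the 6 arrays, between 58.5% and 72.4% of spots were well above the background, and 0 spots were saturated. All 6 of the 8 skeletal muscle markers with a probe (ACTA1, CKM, TTN, DES, CASQ1 and RYR1) stood well above background on each of the 6 arrays. So did 5 of 6 adipocyte markers, while the sixth, PLIN1, did so on 5 arrays. The summed linear signal of the adipocyte markers, in multiples of the 75th percentile, was 83.9 to 255 in LDM and 74.9 to 259 in PMM, a sum in which FABP4, the fatty acid carrier of fat cells (log2 fold change 0.10), was the brightest. The other 5 markers had negative log2 fold changes, the median of the 6 was -0.47, and limma called 0 without a block. With the replicate number as a block it called 2 lower in PMM, beside 79 of all 2856 genes tested. These were the lipid droplet proteins PLIN1 (-1.03, adjusted p = 0.0101 in that fit) and CIDEC (-0.86, adjusted p = 0.0142). PLIN1 was dim, with a mean of -3.04 in LDM and -4.07 in PMM. The labels speak of adipose tissue where they describe the RNA extraction. Same-numbered arrays were scanned on the same day, and replicates 2 and 3 of both muscles shared a slide whereas the replicate 1 arrays did not.

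PPARGC1A had the largest difference of the 5 members tested and was the 1 member whose levels in LDM and PMM did not overlap. The 3 LDM arrays, taken in the order of their replicate numbers here and below, read 2.53, 2.08 and 1.79. The 3 PMM arrays read 3.79, 2.67 and 2.63. Every PMM array therefore lay above every LDM array, though the lowest PMM and the highest LDM array were only 0.09 apart. The mean was 2.13 ± 0.37 in LDM and 3.03 ± 0.66 in PMM (SD, n = 3 each), a log2 fold change of 0.90, or 1.86-fold. Within same-numbered arrays PMM was higher 2.40-fold in replicate 1, 1.51-fold in replicate 2 and 1.78-fold in replicate 3. The array of PMM replicate 1 stood highest, and without it the log2 fold change was 0.52.

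**Figure D1:**
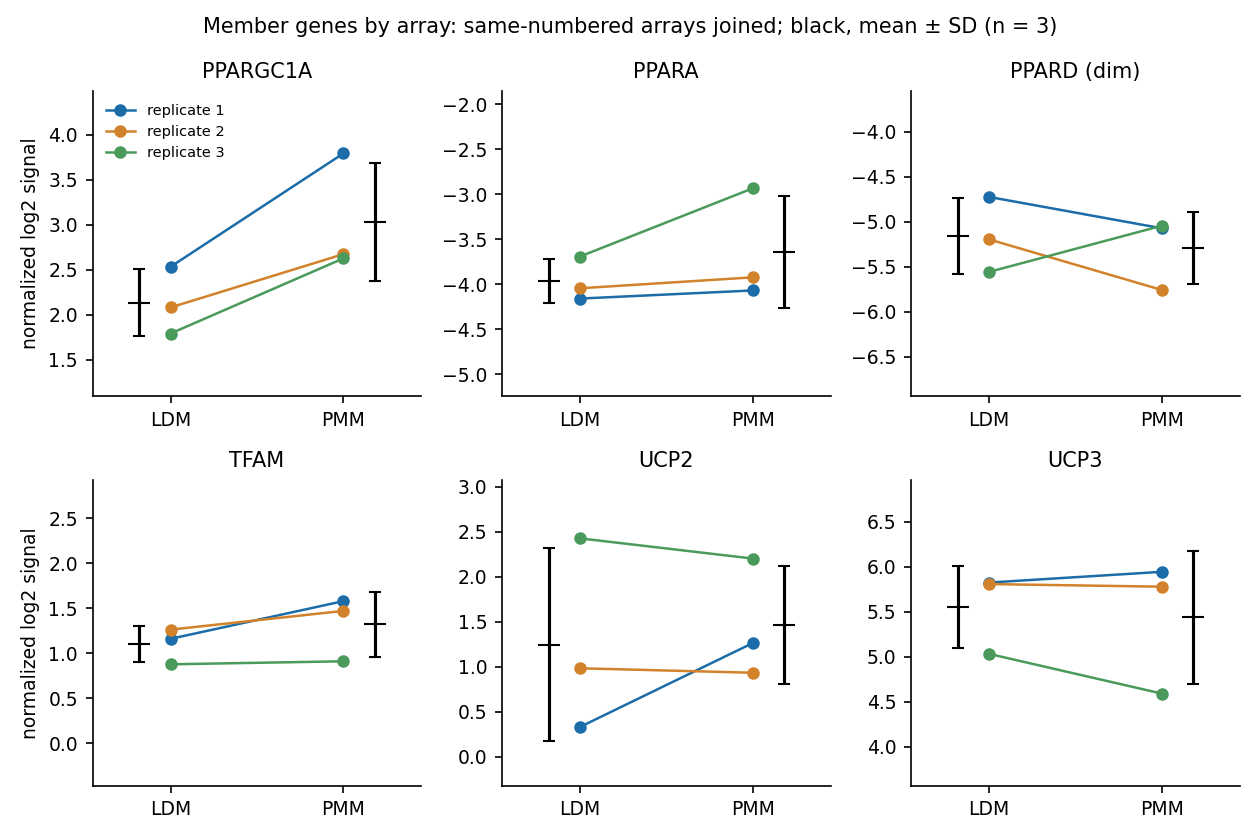
Normalized log2 signal (vertical axis, each panel spanning the same number of log2 units) of the 6 genes with a probe, in LDM and PMM. Coloured points are single arrays, lines join arrays of the same replicate number, and black bars are the mean ± SD of 3 arrays. In PPARGC1A all 3 PMM arrays lie above all 3 LDM arrays, whereas in UCP2 and UCP3 the replicate 3 arrays of both muscles stand apart from the other arrays. PPARD was well above the background on 1 of 6 arrays.

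This probe was the only one of the members spotted more than once, 5 times per array, and 1 spot was marked as an outlier on every array and left out. The remaining 4 spots had an SD of 0.027 to 0.071 on the log2 scale within an array. Spots of 1 array thus scattered far less than arrays of 1 muscle. Their intensities were between 2238 and 4035 units on the LDM arrays and between 4061 and 8703 units on the PMM arrays.

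**Figure D2:**
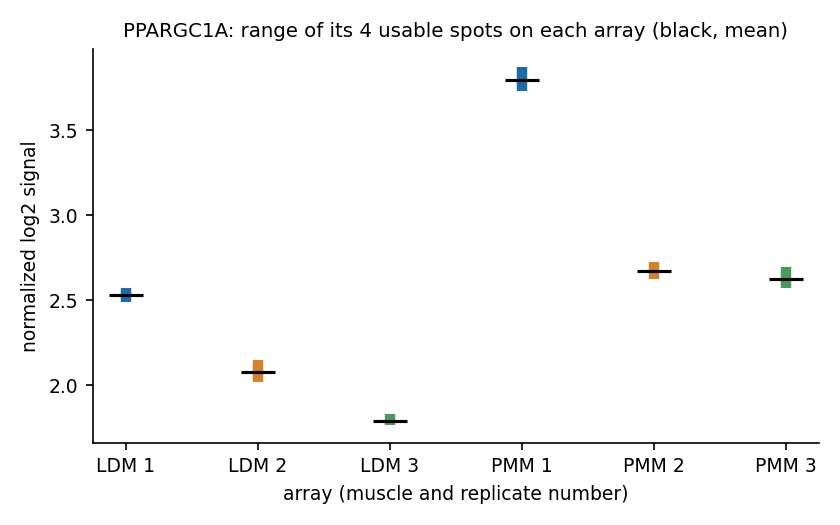
Normalized log2 signal of PPARGC1A (vertical axis) on each array, with coloured bars from the lowest to the highest of its 4 usable spots and a black line at their mean. The closest LDM and PMM arrays, LDM replicate 1 and PMM replicate 3, have means of 2.53 and 2.63 and bars that just meet, from 2.49 to 2.57 and from 2.57 to 2.70.

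In limma over the 2856 genes with a name that were tested, the change of PPARGC1A had an SE of 0.40 and an adjusted p of 0.999, and the unadjusted p was 0.0548. The exact two-sided permutation test of 3 against 3 arrays, which ignores the pairing, gave p = 0.1, the smallest it allows. An exact sign-flip test of the 3 pairs gave p = 0.25, also the smallest it allows. Limma called 0 of the 5 tested members over genes, where 0.0% of all genes were called, and 0 of 5 over probes, where 0.031% of 25835 probes were called. At an unadjusted p under 0.05 there were 107 genes and 0 members. With the replicate number as a block, limma over genes gave PPARGC1A an SE of 0.20 and an adjusted p of 0.00958, with a 95% interval of 0.47 to 1.32, and it was the 1 member called, beside 7.32% of all genes called and 4.55% called higher in PMM. The same block over all probes gave an adjusted p of 0.241 and called 0 members beside 0.0658% of all probes. The SE of PPARGC1A was 0.20 in both fits, but the degrees of freedom were 5.5 over probes and 16.3 over genes. Its unadjusted p in limma was 0.00495 over probes and 0.000372 over genes. The call was thus made only in the fit over named genes. It was also lost when any 1 replicate number was left out, with adjusted p of 0.258 without replicate 1, 0.0770 without replicate 2 and 0.188 without replicate 3.

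Of the 2856 genes, 90 (3.15%) had a higher log2 fold change than PPARGC1A. It was the 1 of 5 members tested whose arrays did not overlap with PMM higher, against 4.11% of all genes. Of 8 markers of slow fibres, 5 had a probe (MYH7, TNNT1, TNNI1, MYL2 and ATP2A2). All 5 were higher in PMM in 3 of 3 pairs, as were 20.1% of all genes. Limma called 0 of them without the block, as 0.0% of all genes. With the block it called 1, beside 4.55% of all genes called higher in PMM. This was TNNI1, a slow troponin (1.03, adjusted p = 0.00708 with the block). None of the 5 was at 0, and their summed linear signal was 1477 to 2134 in LDM and 2082 to 3216 in PMM. Of 11 markers of fast fibres, 9 were tested. Of these, 5 were positive and 4 negative, and 3 were higher in PMM in 3 of 3 pairs. Their median was 0.05, beside 0.46 for the slow fibre markers, and limma called 0 with or without the block. The part of slow or fast fibres in the difference of PPARGC1A was not tested.

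A further probe, on contig TC406917, is described as similar to PPARGC1A of the goat and was not counted as a member. Its signal was -4.36, -3.95 and -4.62 in LDM and -0.72, -3.73 and -4.19 in PMM. It was dim on every array but that of PMM replicate 1, the array on which PPARGC1A also stood highest, and the 2 muscles overlapped (exact permutation p = 0.2).

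PPARA, the receptor that responds to fatty acids and drives their oxidation, gave a weak signal. It was -4.16, -4.04 and -3.69 on the LDM arrays and -4.07, -3.92 and -2.93 in PMM, from intensities of 35.4 to 89.5 units. The probe passed detection on each of the 6 arrays, and the muscles overlapped. PMM was higher in 3 of 3 pairs, as in 20.1% of all genes, with a log2 fold change of 0.32 (SE 0.37, adjusted p = 0.999 in limma over genes) and a 95% interval of -0.53 to 1.18. The difference rested on PMM replicate 3, without which it was -0.031.

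PPARD, the receptor form that prevails in skeletal muscle, was not well above the background. Its signal was -4.72, -5.20 and -5.56 in LDM and -5.07, -5.76 and -5.04 in PMM, and it passed the detection criterion on 1 of 3 LDM arrays and 0 of 3 PMM arrays. The probe was not tested, and no fold can be given. No difference between the muscles was detectable at this signal, which is not the same as an equal level.

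TFAM, the factor that coats and transcribes mitochondrial DNA, differed little. Its signal was 1.16, 1.26 and 0.88 on the LDM arrays and 1.58, 1.47 and 0.91 in PMM. All 3 pairs were higher in PMM, by 1.34-, 1.16- and 1.02-fold, yet the muscles overlapped because the replicate 3 arrays were low in both. The log2 fold change was 0.22 (SE 0.31, adjusted p = 0.999 in limma over genes), and its 95% interval of -0.49 to 0.93 leaves room for a change in either direction. TFAM was also the steadiest member, since 82.0% of all genes had a wider range over the 6 arrays.

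Both contigs described as similar to TFAM, TC341992 and TC313292, were lower in PMM on average, with log2 fold changes of -0.32 and -0.83. The muscles overlapped in both (exact permutation p = 0.8 and p = 0.3), so these probes and the named probe did not share a direction. Contigs named by similarity were not counted as members.

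UCP3, the uncoupling protein of skeletal muscle, did not separate the muscles. Its signal was 5.83, 5.81 and 5.03 on the LDM arrays and 5.95, 5.78 and 4.59 in PMM. The replicate 3 arrays were the lowest in both muscles. The log2 fold change was -0.12 (SE 0.43, adjusted p = 0.999 in limma over genes), with a 95% interval of -1.11 to 0.88 that the replicate block narrowed to between -0.54 and 0.30. The means of same-numbered arrays spanned 2.10-fold, more than any difference between the muscles within a pair.

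UCP2, the more widely expressed uncoupling protein, had the widest range of the members over the 6 arrays, slightly above that of PPARGC1A, and 11.8% of all genes had a wider range. Its signal was 0.33, 0.98 and 2.43 on the LDM arrays and 1.26, 0.93 and 2.20 in PMM. Both replicate 3 arrays were high, and the muscles overlapped throughout. The log2 fold change was 0.22 (SE 0.57, adjusted p = 0.999 in limma over genes), with a 95% interval of -1.08 to 1.52. PMM was higher in replicate 1 only, by 0.93, and the other pairs differed by -0.05 and -0.22. The means of same-numbered arrays spanned 2.87-fold. The sign of the mean difference depended on the replicate 1 LDM array, without which it was -0.24.

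Markers of leukocytes shared with UCP2 their highest arrays, those of replicate 3. Of the 6 in the list, 4 had a probe (PTPRC, CD14, CD163 and CD3E), all passed detection on each of the 6 arrays, and none was at 0. Their summed linear signal was 4.10, 9.35 and 17.8 on the LDM arrays and 5.54, 10.2 and 15.5 in PMM, and CD163 was the brightest. The sum was highest in replicate 3 of both muscles, as was UCP2. From PMM replicate 1 to 2, however, the sum rose from 5.54 to 10.2 whereas UCP2 fell from 1.26 to 0.93. Endothelial markers, with probes for all 5 genes listed, summed to 53.0, 92.1 and 162 in LDM and 90.4, 106 and 156 in PMM. The part of either in the signal of UCP2 was not tested.

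**Figure D3:**
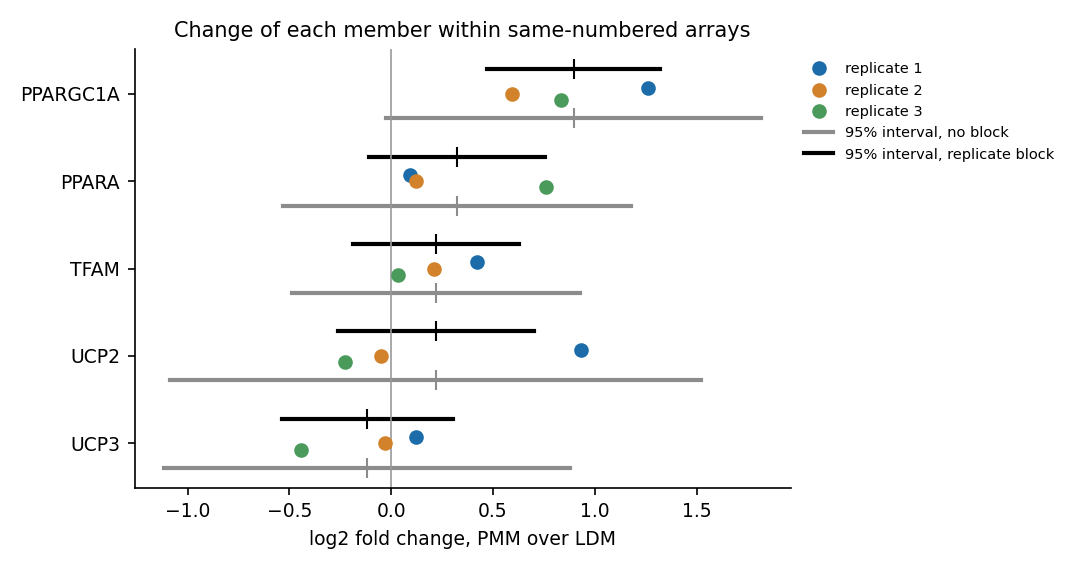
Log2 fold change of PMM over LDM (horizontal axis) for the 5 members tested, as coloured points for arrays of replicate 1, 2 and 3, with the 95% interval of limma over genes without a block (grey) and with the replicate number as a block (black). PPARGC1A is higher in PMM in all 3 pairs, by 1.26, 0.59 and 0.84, and its interval with the block stays above 0, while those of PPARA, TFAM, UCP2 and UCP3 include 0.

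Set beside each other within same-numbered arrays, the regulators changed by unequal amounts only in part. Of the 5 members tested, 3 (PPARGC1A, PPARA and TFAM) were higher in PMM in all 3 pairs. The 5 members form 10 pairs of genes, for which the difference of their log2 signals within each array was compared between the muscles. PPARGC1A changed by 1.01 more than UCP3, by 1.14, 0.62 and 1.28 in the 3 pairs of arrays, and this was the 1 comparison of 10 in which the muscles did not overlap (exact permutation p = 0.1, the smallest possible, unadjusted). It changed by 0.68 more than TFAM, with 0.84, 0.38 and 0.80 in the 3 pairs (exact permutation p = 0.2). Against UCP2 the excess was also 0.68, with 0.33, 0.64 and 1.06 (exact permutation p = 0.6). Against PPARA it was 0.57, and it was only 0.08 in replicate 3 (exact permutation p = 0.6). These permutations ignored the pairing of arrays. An exact sign-flip test of the 3 pairs gave p = 0.25 in each of these 4 comparisons, the smallest it allows, and so did not rank them. Thus PPARGC1A exceeded each of the other 4 members in 3 of 3 pairs, but no comparison could reach the usual threshold with 3 arrays per muscle. PPARGC1A was the member with the largest change on these same arrays, and its values enter all 4 comparisons, so they are not independent of each other.

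TFAM changed by 0.34 more than UCP3, by 0.30, 0.24 and 0.48 in the 3 pairs (exact permutation p = 0.3). TFAM and UCP2 had the same mean change to within 0.00059, although their pairs differed by -0.51, 0.26 and 0.26. Equal means thus hid unequal pairs. Both uncoupling genes differed from each other by 0.34, with 0.81, -0.02 and 0.22 in the 3 pairs (exact permutation p = 0.6).

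Among the genes around the regulators, those known to be activated through PPARs held the most calls. Of 19 such genes 13 had a probe and were tested, and 10 of them had a positive and 3 a negative log2 fold change. Of the 12 with a value in every pair, 9 were higher in PMM in 3 of 3 pairs, beside 20.1% of all genes. The median was 0.65, beside -0.01 over all genes, of which 48.1% were positive. Without the block limma called 0 of 13 and with the replicate block it called 5, all higher in PMM, beside 4.55% of all genes. These were FABP3, which carries fatty acids in the cytosol, CPT1B, which admits them to the mitochondrion, LPL, which frees them from blood lipids, and the dehydrogenases ACADM and ACADL. The log2 fold change of FABP3 was 2.16, or 4.46-fold (SE 0.22, adjusted p = 1.7e-05 with the block and 0.515 without it), and that of CPT1B was 1.15 (SE 0.20, adjusted p = 0.00186 with the block). LPL changed by 1.12, ACADM by 0.87 and ACADL by 0.76, with adjusted p of 0.00876, 0.00809 and 0.0248 with the block in limma. FABP3, CPT1B and LPL did not overlap between the muscles, as was so with PMM higher in 4.11% of all genes. When replicates 1, 2 and 3 were left out in turn, the block called 2, 3 and 0 PPAR targets, and with quantile normalization it called 0. Leaving out 1 array moved ACADM to between 0.39 (without LDM replicate 3) and 1.39 (without PMM replicate 3), and without PMM replicate 1 CPT1B was 0.74. CPT1A, the liver form of CPT1B, stood at -0.21 and was not called. Cell type markers that differed in the same fit with the block were the slow fibre marker TNNI1, higher in PMM, and the adipocyte markers PLIN1 and CIDEC, lower. The 5 endothelial markers were all positive, with a median of 0.28, and 0 were called. The part of these markers in the differences of the PPAR targets was not tested.

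Genes known to respond to ERR alpha and NRF1, the members without a probe, leaned the same way by smaller amounts. Of 16 such genes 7 were tested, all 7 had a positive log2 fold change, and the median was 0.52. Of these 7, 5 were higher in PMM in 3 of 3 pairs, beside 20.1% of all genes. Limma called 0 of 7 without the block, as 0.0% of all genes. With the block it called 1 of 7, beside 4.55% of all genes called higher in PMM. This was ATP5F1A, a subunit of ATP synthase listed as ATP5A1 in the files (0.70, adjusted p = 0.0404 with the block). MDH2, the malate dehydrogenase of the mitochondrion, stood at 0.58 and SDHA, the flavoprotein of succinate dehydrogenase, at 0.53, and neither was called. Without PMM replicate 1 ATP5F1A was 0.32, MDH2 0.057 and SDHA 0.19. In all 7 genes the pair of replicate 1 leaned the most towards PMM, as it did in 56.2% of all genes. Without PMM replicate 1 the median was 0.19. The call was lost with any 1 replicate number left out of the fit with the block.

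**Figure D4:**
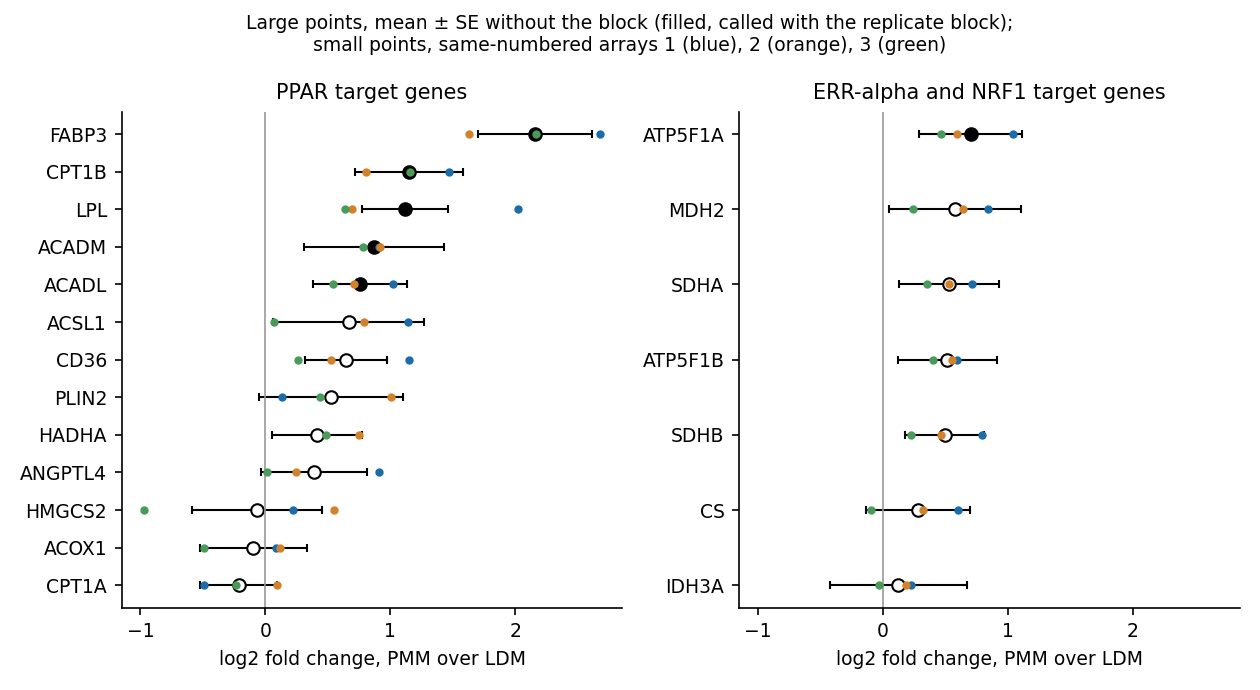
Log2 fold change of PMM over LDM (horizontal axis) for the 13 tested PPAR target genes (left) and the 7 tested ERR alpha and NRF1 target genes (right). Large points with bars are the mean ± SE from limma over genes without a block, filled where the fit with the replicate block called the gene, and small points are arrays of replicate 1 (blue), 2 (orange) and 3 (green). HADHA has no value for replicate 1. FABP3 lies farthest to the right at 2.16, and all 7 genes on the right have means above 0.

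Partners of PGC-1 alpha and other nuclear receptors were not shifted together. All 8 of the 19 with a probe were tested, 4 were positive and 4 negative, 0 were called by limma with or without the block, and the median was -0.04. These signs are those of the brightest probe. Other probes of MEF2C, EP300 and GABPB1 reached the opposite sign, while those of RXRG (-1.07), MEF2A and THRA kept it. With the mean of all probes of a gene the median was 0.010. RXRG, a retinoid X receptor that pairs with PPARs, stood at -0.72 and was lower in PMM in 3 of 3 pairs, as were 21.4% of all genes, with an adjusted p of 0.0555 in limma with the block. MEF2A, a muscle factor of a family that acts on the PPARGC1A promoter, stood at -0.57, and GABPB1, a subunit of nuclear respiratory factor 2, at 0.18. RXRG depended on single arrays, with -0.28 without LDM replicate 1, -0.38 without PMM replicate 2, -1.08 without PMM replicate 1 and -1.34 without LDM replicate 2, and without LDM replicate 1 it was smaller than MEF2A at -0.44. PPARG, a receptor of fat cells, was within 0.09 of equal in every pair.

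Signals known to act on PPARGC1A showed no common direction either. Of 17 genes 11 were tested, 6 were positive and 5 negative, 0 were called by limma with or without the block, and the median was 0.07. PRKAA2, a catalytic subunit of AMP-activated kinase, stood at -0.58, SIRT3, a mitochondrial deacetylase, at 0.54, and PRKAG1, a regulatory subunit of that kinase, at 0.40. With 1 array left out, PRKAA2 ranged from -0.77 to -0.30, SIRT3 from 0.12 to 0.90 and PRKAG1 from 0.17 to 0.69, so none kept its size. The deacetylase SIRT1 stood at -0.20, and its arrays did not overlap, as in 3.05% of all genes with PMM lower.

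The inner machinery of the mitochondrion was sparsely covered by named probes. Of 15 genes for upkeep of mitochondrial DNA 1 was tested, MTERF3, a regulator of mitochondrial transcription, at -0.17. Of 7 carriers related to the uncoupling proteins 1 was tested, the ADP/ATP carrier SLC25A6, at 0.11. Of 19 genes of fusion, fission and import 2 were tested, the outer membrane channel VDAC1 at 0.32 (0.070 without PMM replicate 1, 0.53 without PMM replicate 3) and the chaperone HSPD1 at 0.22. Limma called 0 of these 4 genes with or without the block.

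Genes with the pattern most like each member were found by the root mean square difference of log2 signals centred on each gene's own mean, over 6 arrays and 2737 genes that passed detection on every array. Closest to PPARGC1A were TPMT, a methyltransferase of thiopurines, at 0.090, ACADS, the short-chain acyl-CoA dehydrogenase, at 0.094, and QKI, an RNA-binding protein, at 0.10, where the median gene was 0.70 away. Closest to PPARA were WNT10B, a Wnt ligand, at 0.17, REC8, a cohesin of meiosis, at 0.17 and PAQR8, a membrane progesterone receptor, at 0.20, which is nearer to the 0.59 of the median gene. TFAM spanned less than 1 unit over the arrays, and no genes were sought for it.

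Closest to UCP2 were SLA-2, a class I histocompatibility gene of the pig, at 0.068, GBP1, an interferon-induced GTPase, at 0.095, and CD74, the invariant chain of class II molecules, at 0.10. All 3 were low in LDM replicate 1 and high in both replicate 3 arrays. The signal of CD74 was -0.03, 0.51 and 2.08 in LDM and 1.03, 0.62 and 2.06 in PMM. Closest to UCP3 were CRYZ, a quinone reductase, at 0.076, ACVR2A, an activin receptor, at 0.078, and COPS2, a subunit of the COP9 signalosome, at 0.096. These were low in both replicate 3 arrays. Arrays of 1 replicate number share a scan day, so nearness over 6 arrays is a description of these arrays.

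**Figure D5:**
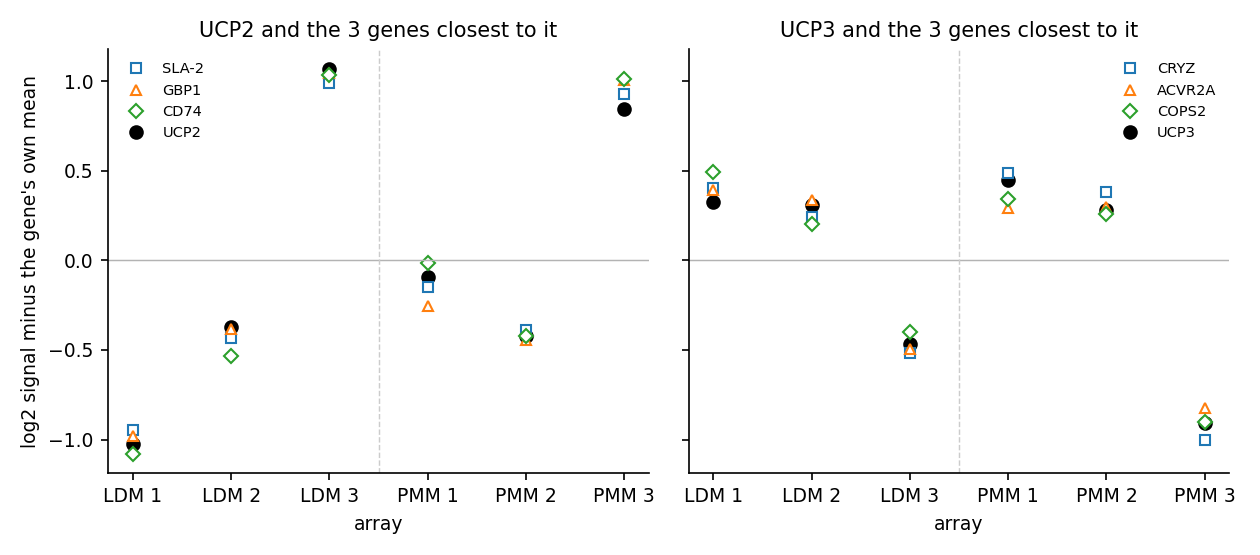
Log2 signal minus each gene's own mean (vertical axis) on the 6 arrays for UCP2 (left) and UCP3 (right), filled black, with the 3 genes closest to each as open symbols. UCP2, SLA-2, GBP1 and CD74 are high on both replicate 3 arrays, and UCP3, CRYZ, ACVR2A and COPS2 are lowest there.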

How the data were processed

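RNA of LDM and PMM was hybridized to 6 one-colour arrays. The authors deposited linear spot intensities (gProcessedSignal), made with Agilent Feature Extraction 10.5.1.1 according to the submitters' processing notes, which are background-subtracted but not normalized between arrays. The series value table holds the same intensities to within 0.005 units and served as an alternative. Control spots and outliers were left out, repeated spots were averaged, and each array was scaled by subtracting log2 of its 75th percentile from log2 of the intensity. Probes were named by RefSeq accession (3005), gene number (1179) or the name in the files (894), with 5078 probes and 3470 genes named. A probe was tested when it stood well above background on all 3 arrays of LDM or of PMM and had at least 2 values per muscle. The muscles were contrasted in R 4.3.3 by limma 3.58.1, two-sided, with Benjamini-Hochberg adjustment at 0.05, over 25835 probes and over the brightest probe of each of 2856 genes. The alternative that averages a gene's probes used those with a value on every array, where there were any. Exact permutation tests used 3 against 3 arrays and ignored the replicate numbers, and exact sign-flip tests used the 3 pairs. The test was checked on simulated data. The members and lists were chosen with earlier results of these data known. Named were all members, up to 3 genes per list with the largest change, any gene of a list that was called, and the 3 genes closest to each member with a span of at least 1. SIRT1, PPARG and CPT1A were named after their values were seen. One item of a list is not reported here. The paper states no normalization or test for the arrays itself, and no genome build is named in the files, so no coordinates are given.

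Deviations from the muscle mean correlated between same-numbered arrays at 0.62, 0.70 and 0.56 and between others from -0.54 to -0.01. Such deviations cancel within a muscle, so the negative values of the others follow on average from the positive ones. As all 3 exceeded 0.1, replicate numbers were treated as pairing the samples. Replicate number and scan day coincide, and same-numbered arrays of replicates 2 and 3 also shared a slide. Pig, day and, for replicates 2 and 3, slide therefore cannot be told apart.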

Additional observations from a re-analysis of the deposited data

How the results depend on the processing

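The alternatives were other normalizations, background correction and filters, outliers kept, the value table of the series, the mean of all probes of a gene, the replicate number or the slide as a block, and leaving out arrays. The log2 fold change of PPARGC1A stayed positive under all 21 alternatives, from 0.52 to 1.1. Limma called it under 1 of them, the replicate block. Leaving out arrays could not turn its sign, since every PMM array lay above every LDM array. The replicate block, the detection filters and the mean of all probes kept it at 0.90, as the same probe and arrays entered each. With slide as a block it was 0.71 (adjusted p = 0.154), and with the block and quantile normalization the adjusted p was 0.0958. The excess of PPARGC1A over UCP3 ranged from 0.79 to 1.36.

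Pairing by the replicate block moved the probes called from 8 to 17, the genes from 0 to 209 and the members from 0 to 1, and called 5 PPAR targets and 1 ERR alpha and NRF1 target. It changed no other call on a member. Combined with quantile normalization it called 0 probes. Without replicate 1, 2 and 3 the block called 790, 1 and 0 probes. Without replicates 1 and 2 it called 104 and 127 genes, of which 2 and 3 were PPAR targets. Slide as a block called 529 probes, 126 genes and 3 PPAR targets. Without a block, 0 probes were called with the percentile taken over probes detected on all arrays, with no filter, with only probes detected on all arrays, and with outliers kept, and 1 with normexp, which moved the median of all probes from -0.04 to 0.11. Leaving out 1 array gave 0 to 1 probes and 0 genes. Over genes, limma gave all members tested the same SE of 0.28 with slide as a block. It did so too with the block without replicate 1 (0.30) and without replicate 2 (0.36). Calls in those fits rested on the size of the change, not on the spread of each gene's own arrays. Beyond this, why the counts moved was not tested.

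UCP2 turned to -0.14 with slide as a block and with the block without replicate 1, settings that take the contrast from the same arrays. UCP2 also turned to -0.24 without LDM replicate 1 and to -0.15 without PMM replicate 3 (0.81 at most over single arrays left out). UCP3 turned to 0.018, 0.0094 and 0.31 without LDM replicate 1, LDM replicate 2 and PMM replicate 3, and to 0.045 with the block without replicate 3 (-0.38 at the lowest). PPARA turned to -0.031 without PMM replicate 3 and reached 0.54 at most. MTERF3 turned to 0.00014 without PMM replicate 3 (-0.29 at the lowest). SLC25A6 turned to -0.10 with normexp, to -0.0022 with slide as a block and with the block without replicate 1, and to -0.029 without LDM replicate 2 (0.33 at most). HSPD1 turned to -0.19 without LDM replicate 3 and -0.25 without PMM replicate 1 (0.76 at most). TFAM stayed between 0.054 and 0.43. Each member rests on 1 probe, 3 arrays per muscle bound the precision, and PPARA and PPARD were close to the background.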
